A study of Rattus norvegicus with 4 samples.

Results

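Vasoactive signalling genes of the endothelin, nitric oxide and natriuretic peptide systems were examined in glomeruli isolated by sieving from the kidneys of 4 male Wistar rats. The rats form a single group that received Adriamycin (ADR, doxorubicin) intravenously, an anthracycline used in rodents to injure podocytes and cause nephrotic syndrome. The labels give no age and do not tie these rats to one of the harvest days named for the series. The oral treatments of the series are described for rats given another podocyte toxin. Untreated rats were not analysed here, so the values describe levels under ADR and differences between rats, not an effect of ADR. The genes were chosen by symbol from a list of 10, and 9 of them, out of 13261 genes used, were found: Edn1, Ece1, Ednra, Ednrb, Nos3, Npr1, Npr2, Npr3 and Pde5a. Expression of Prkg1 was not analysed here.

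Endothelin-1 is a peptide made mainly by endothelial cells. It is cut from its precursor by endothelin converting enzyme and acts on the receptors ETA and ETB, of which ETA contracts smooth muscle and mesangial cells, while endothelial ETB releases nitric oxide and clears the peptide. Nitric oxide and natriuretic peptides oppose this contraction through cyclic GMP, which is made by soluble guanylate cyclase or by the receptors NPR-A and NPR-B, removed by phosphodiesterases and read out by cGMP-dependent protein kinase. In the glomerulus these systems set vascular tone and filtration, and podocytes, mesangial cells and endothelial cells each carry some of the receptors.

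Replicates 1 to 4 held between 13566962 and 16207027 reads in the genes used. Levels are given in CPM, the read count of a gene scaled to a common total of these reads, which are not corrected for transcript length, so levels of different genes are not compared. All 9 genes had at least 117 reads in each of the 4 libraries. Podocyte markers were present, with a summed level of 6518 to 11674 CPM over 12 genes, as were 11 endothelial markers, with 7410 to 9791 CPM, and 9 mesangial markers, with 2150.2 to 2927 CPM. The 10 proximal tubule markers summed to 3568 to 7581 CPM, so tubular transcripts were also present. No marker was at 0, and the lowest podocyte, endothelial and mesangial markers had 165, 2316 and 124 reads in a library. In such bulk samples, fewer cells of a type and less RNA per cell cannot be told apart.

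**Figure D1:**
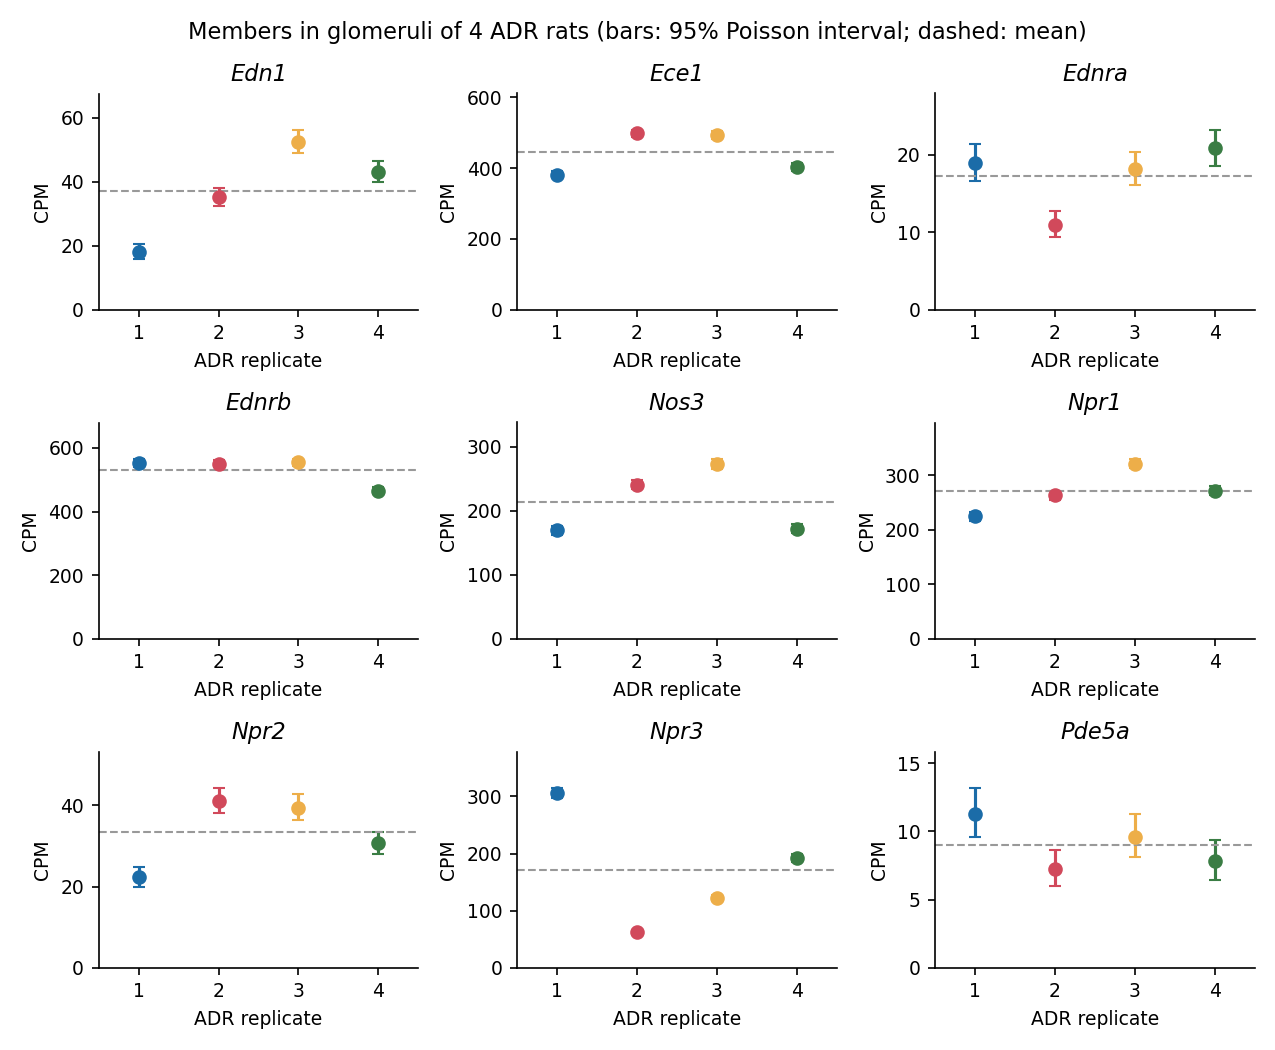
CPM of the 9 genes (vertical axes, each from 0) in ADR replicates 1 to 4 (horizontal axes), with 95% Poisson intervals that cover counting error only and the mean as a dashed line. Npr3 runs from 306 CPM in replicate 1 to 62.2 CPM in replicate 2, Edn1 is lowest in replicate 1 at 18.1 CPM, and Ednrb is level in replicates 1 to 3 and lower in replicate 4.

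Npr3 differed most between the rats and Ednrb least. Between the highest and the lowest rat the difference was 4.92-fold for Npr3, 2.91-fold for Edn1, 1.89-fold for Ednra and 1.85-fold for Npr2. It was 1.61-fold for Nos3, 1.56-fold for Pde5a, 1.43-fold for Npr1, 1.30-fold for Ece1 and 1.19-fold for Ednrb. The SD of log2 CPM over the 4 rats had a median of 0.35 over the 9 genes, beside 0.18 over all 13261 genes. It exceeded 0.4 for 4 of the 9 (Npr3, Edn1, Ednra and Npr2), beside 12.1% of all genes. Without replicate 1 this count was 2 (Npr3 and Ednra), beside 8.81% of all genes, and the median over the 9 genes was 0.23. The count was 3 with median-of-ratios scaling, beside 12.2% of all genes, and 3 with mitochondrial genes left out of the totals, beside 12.3%. Ednra fell below 0.4 under both.

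Each gene's reads were then set against counting error with a chi-square index of dispersion, adjusted by Benjamini-Hochberg over all genes. The 4 rats differed by more than counting error for 9 of the 9 genes, beside 69.5% of all genes. The largest statistic was that of Npr3, 2918 with 3 degrees of freedom, and the smallest that of Pde5a, 16.6 (adjusted p = 0.00163). The statistic grows with reads as well as with spread. It was 161 for Ednrb, with an SD of 0.12, against 16.6 for Pde5a, with an SD of 0.29. The share of all genes includes genes with fewer reads, so it is not a share at like depth. The count fell to 8 when replicate 1, 2 or 4 was left out, through Pde5a, Ednra and Ednrb in turn. In a limma fit, each gene's variance was compared with the trend of variance over abundance, which called 0 of the 9 genes and 0% of all genes at an adjusted p under 0.05. At an unadjusted p under 0.05 this comparison passed 2 of the 9, Npr3 and Edn1, beside 5.47% of all genes. The unadjusted limma p was 0.00203 for Npr3 and 0.0115 for Edn1, and the adjusted limma p was 0.912 for each. The trend and the spread about it were fitted to these same genes, so only a gene far outside all others could pass. The 0 calls therefore do not show that the 9 genes vary like other genes. Nothing in the labels says whether the libraries come from separate extractions, and the p-values measure only the spread between these samples.

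The ligand gene Edn1 (ENSRNOG00000014361) and the clearance receptor gene Npr3 (ENSRNOG00000019184) had the widest spread, so their annotated promoter windows are shown. The annotated starts were not checked against measured transcription starts, so a window may miss part of the promoter. Windows of 300 bases, from 250 before to 50 after the annotated start, come from RefSeq on the rat build GRCr8, with a window found by symbol for 9 of the 10 listed genes, all but Npr2. The search covered 5 motifs on both strands, and capitals mark their matches. The first was TATAAA, the core promoter box. The others were TGACTAA, a form of the element bound by Fos and Jun proteins, AGATAA, a form of the element bound by zinc finger factors of the endothelium, GGGCGG, bound by Sp proteins, and GAGACC, known as a shear stress element. Edn1 lies on the minus strand at chr17:22666638-22666937 and Npr3 on the minus strand at chr2:62658716-62659015, each printed 5′ to 3′.
Edn1: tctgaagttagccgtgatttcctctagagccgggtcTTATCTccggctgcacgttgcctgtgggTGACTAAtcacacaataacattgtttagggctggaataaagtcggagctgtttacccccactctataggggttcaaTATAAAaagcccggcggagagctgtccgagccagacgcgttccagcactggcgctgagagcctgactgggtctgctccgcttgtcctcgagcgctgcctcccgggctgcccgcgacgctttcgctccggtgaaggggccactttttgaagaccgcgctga
Npr3: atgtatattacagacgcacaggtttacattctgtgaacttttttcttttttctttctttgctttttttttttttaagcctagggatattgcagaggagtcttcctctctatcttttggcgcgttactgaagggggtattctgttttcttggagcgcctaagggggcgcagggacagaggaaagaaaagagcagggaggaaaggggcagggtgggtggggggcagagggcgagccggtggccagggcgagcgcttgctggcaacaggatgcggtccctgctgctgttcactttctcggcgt
The Edn1 window held TATAAA at 110 bases before the start, TGACTAA at 186 bases before it and AGATAA, read on the other strand as TTATCT, at 214 bases before it, with no overlap among them. These motifs stood in 14.2%, 2.34% and 11.6% of 33469 windows of the same length. The 5 motifs were picked by hand, so these shares do not show how unusual the Edn1 matches are. AGATAA was also found in the window of Prkg1. None of the 5 motifs was found in the Npr3 window, which says only that these letters are not in it. GGGCGG, present in 33.1% of windows, was found in those of Ece1, Nos3, Npr1 and Pde5a, and GAGACC, present in 16.5%, in none of the 9. A match is a description of the letters, and binding was not measured.

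Edn1, the gene of preproendothelin-1, had 18.1, 35.2, 52.6 and 43.2 CPM in replicates 1 to 4 (245, 570, 807 and 658 reads), a mean of 37.2 ± 14.6 CPM (SD, n = 4). Replicate 1 was lowest and replicate 3 highest, and the 95% Poisson intervals of the 4 rats did not overlap (15.9 to 20.5 CPM in replicate 1 and 49.0 to 56.3 CPM in replicate 3). For Edn1 the order of the rats was the same with median-of-ratios scaling and with mitochondrial genes left out of the totals. The SD of its log2 values was 0.67 and fell to 0.29 without replicate 1. Over the 4 rats, the genes with the most similar centred log2 profile were Steap4, with a root mean square difference of 0.043, and Cd8a, with 0.045, a gene of cytotoxic T cells. Both were low, at 36 to 114 and 43 to 148 reads. Of 9 leukocyte markers, 6 were also lowest in replicate 1, beside 35% of all genes, while C1qa and C1qb were lowest in replicate 3 and Cd74 in replicate 4. Their mean log2 CPM was 4.54, 4.95, 5.11 and 4.82 in replicates 1 to 4, and their summed level was 934, 1129.7, 963 and 862 CPM, lowest in replicate 4. Their part in the Edn1 values was not tested.

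Ece1 (ENSRNOG00000014241), which encodes the enzyme that releases endothelin-1 from its precursor, had 382, 498, 494 and 403 CPM, a mean of 444 ± 60.4 CPM (SD, n = 4). Replicates 2 and 3 were alike within their counting intervals and above replicates 1 and 4. The same arrangement was seen in the mean of the 11 endothelial markers, which stood at 9.09, 9.41, 9.48 and 9.21 log2 CPM. Ece1 minus that mean was -0.52, -0.45, -0.53 and -0.55 in replicates 1 to 4. The difference had an SD of 0.04, against 0.20 for Ece1 itself, and 117 of 13261 genes (0.882%) had a smaller SD. Its closest profiles were those of Cdk2, at 0.0067, and Thbs2, at 0.011, and 1145 genes lay within 0.1 of Ece1. Edn1 minus the same mean ranged from -4.91 in replicate 1 to -3.76 in replicate 3, with an SD of 0.54. The ligand and its converting enzyme were both lowest in replicate 1, but Edn1 differed between replicates 1 and 3 by 1.54 on the log2 scale and Ece1 by 0.37.

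The receptors of endothelin differed in their pattern. Ednra (ENSRNOG00000012721), the gene of ETA, had 18.9, 11.0, 18.1 and 20.8 CPM (256, 178, 278 and 317 reads), a mean of 17.2 ± 4.29 CPM (SD, n = 4). Replicate 2 stood below the other 3, whose counting intervals overlapped. Without replicate 2, its SD fell from 0.41 to 0.10 on the log2 scale and the counting-noise test no longer passed (chi-square test, adjusted p = 0.287). Replicate 2 was also the lowest rat for 12 of 12 podocyte markers and 7 of 9 mesangial markers, beside 31.5% of all genes. The mitochondrial share of reads was highest in that library, at 12.5% against 7.46% to 9.34% in the others, and its part in the Ednra values was not tested. Ednra minus the podocyte mean had an SD of 0.22, which 3.46% of all genes undercut, and minus the mesangial mean an SD of 0.26, which 41.3% undercut. Its nearest profiles were those of AABR07001634.1, with a root mean square difference of 0.027, and Twist1, with 0.028, a mesenchymal transcription factor.

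Ednrb (ENSRNOG00000010997), the gene of ETB, had 551, 549.8, 555 and 465 CPM, a mean of 530.2 ± 43.3 CPM (SD, n = 4). The counting intervals of replicates 1 to 3 overlapped and replicate 4 was lower, with 7094 reads and an interval of 455 to 476 CPM. Dixon's ratio of gap to range set 1 rat apart for 1 of the 9 genes, Ednrb, beside 5.08% of all genes. Which of replicates 1 to 3 was highest changed with the scaling. Without replicate 4 the SD was 0.0063 and the chi-square test no longer passed (adjusted p = 0.868). The endothelial list mean was not lowest in replicate 4, where its value of 9.21 lay above the 9.09 of replicate 1. Ednrb minus that mean was 0.01 in replicate 1 and -0.31, -0.36 and -0.35 in replicates 2 to 4.

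Within each rat, Ednrb minus Ednra was 4.87, 5.64, 4.93 and 4.48 log2 CPM in replicates 1 to 4, a mean of 4.98 ± 0.48 (SD, n = 4). The size and sign of this difference include the unknown ratio of the transcript lengths, so only its variation between rats is described. The difference was widest in replicate 2 and narrowest in replicate 4. The SD fell from 0.48 to 0.24 without replicate 2.

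Nos3 (ENSRNOG00000009348), which encodes the endothelial nitric oxide synthase, had 169, 241, 273 and 172 CPM, a mean of 214 ± 51.6 CPM (SD, n = 4). Replicates 2 and 3 were higher than replicates 1 and 4, whose intervals overlapped (162 to 176 and 165 to 179 CPM). With median-of-ratios scaling replicate 4 became the lowest. Nos3 minus the endothelial mean was -1.69, -1.50, -1.39 and -1.78, and its SD of 0.18 was below the 0.35 of Nos3 itself. A smaller SD was found for 31% of all genes. The closest profiles were those of Cacna1g, a calcium channel gene, at 0.024, and Bora, at 0.026. The RefSeq span of Nos3 overlaps that of Atg9b, and those of Ednra and Npr1 each overlap an unnamed locus. Since the use of strand in counting is not given in the sources used here, reads of the overlap cannot be told apart.

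**Figure D2:**
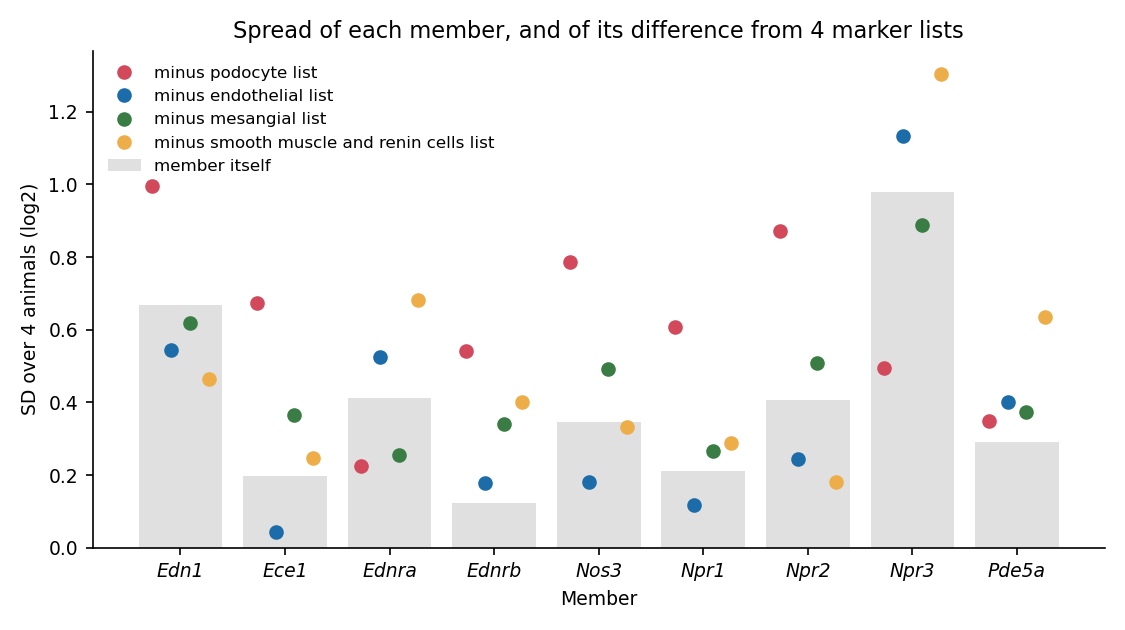
SD over 4 ADR rats (vertical axis, log2 units) of each gene on the horizontal axis (grey bars) and of its difference from the mean of 4 marker lists (coloured points). A point below its bar marks a gene whose level relative to that list varied less than the gene itself, as for Ece1 and the endothelial list (0.04 against 0.20) and Npr3 and the podocyte list (0.49 against 0.98).

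Natriuretic peptide receptors were described next. Npr1 (ENSRNOG00000014684), the gene of NPR-A, which binds atrial and B-type natriuretic peptides and makes cyclic GMP, had 225, 263, 322 and 272 CPM, a mean of 271 ± 39.9 CPM (SD, n = 4). Replicate 1 was lowest and replicate 3 highest, and the intervals of replicates 2 and 4 overlapped. Npr1 minus the endothelial mean stayed between -1.37 and -1.12, with an SD of 0.12, which 12.3% of all genes undercut. Med11 and Paqr6 had the closest profiles, at 0.016 and 0.018. In all, 956 genes lay within 0.1 of Npr1.

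Npr2 (ENSRNOG00000015991), the gene of NPR-B, the receptor of C-type natriuretic peptide, had 22.3, 41.2, 39.5 and 30.6 CPM (302, 667, 606 and 467 reads), a mean of 33.4 ± 8.73 CPM (SD, n = 4). Replicate 1 was lowest, replicate 4 intermediate, and replicates 2 and 3 overlapped at the top. The SD of 0.41 fell to 0.23 without replicate 1. Relative to the 5 smooth muscle and renin cell markers, whose means were 6.29, 7.13, 6.83 and 6.90 log2 CPM, Npr2 stood at -1.81, -1.77, -1.53 and -1.96. The SD of that difference was 0.18, and 4.59% of all genes had a smaller one. That share was 50.9% relative to the endothelial list, 90.7% relative to the mesangial list and 96.4% relative to the podocyte list. Chit1, at 0.014, and Lyl1, at 0.024, had the closest profiles, with at most 130 reads each.

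Npr3, the gene of the clearance receptor NPR-C, which takes up all 3 natriuretic peptides and lacks a guanylate cyclase, had 306, 62.2, 122 and 192 CPM in replicates 1 to 4 (4152, 1008, 1867 and 2924 reads). The mean was 170.4 ± 105 CPM (SD, n = 4). Replicate 1 was highest, followed by replicates 4, 3 and 2, and none of the counting intervals overlapped. This order was kept under both other scalings. Mitochondrial genes took 7.46%, 12.5%, 9.34% and 7.56% of the reads in replicates 1 to 4, the reverse order, and their part in the Npr3 and podocyte values was not tested. Its SD of 0.98 exceeded that of 99.4% of all genes, and stayed between 0.67 and 1.18 when each rat was left out in turn.

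Podocyte markers were arranged like Npr3. The order 1, 4, 3, 2 from highest to lowest was found for 12 of 12 podocyte markers, with the deposited totals and with both other scalings, and for 9.44% of all genes with the deposited totals. The list mean was 8.85, 7.72, 8.26 and 8.60 log2 CPM. Of the 13261 genes, the closest profile to Npr3 was that of Magi2, a podocyte marker that encodes a scaffold of the slit diaphragm, with 637, 165, 323 and 483 reads and a root mean square difference of 0.062. The next was AABR07006724.1, at 0.066, and 3 genes in all lay within 0.1 of Npr3. Replicate 1 exceeded replicate 2 by 2.30 on the log2 scale for Npr3, beside 2.20 for Magi2, 1.94 for Synpo and 1.66 for Plce1. Npr3 minus the podocyte mean was -0.59, -1.76, -1.34 and -1.02, so the difference kept the order of Npr3 itself, with an SD of 0.49 against 0.98. Of all genes, 44.1% had a smaller SD relative to this list. The part of podocyte RNA in the Npr3 values was not tested.

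**Figure D3:**
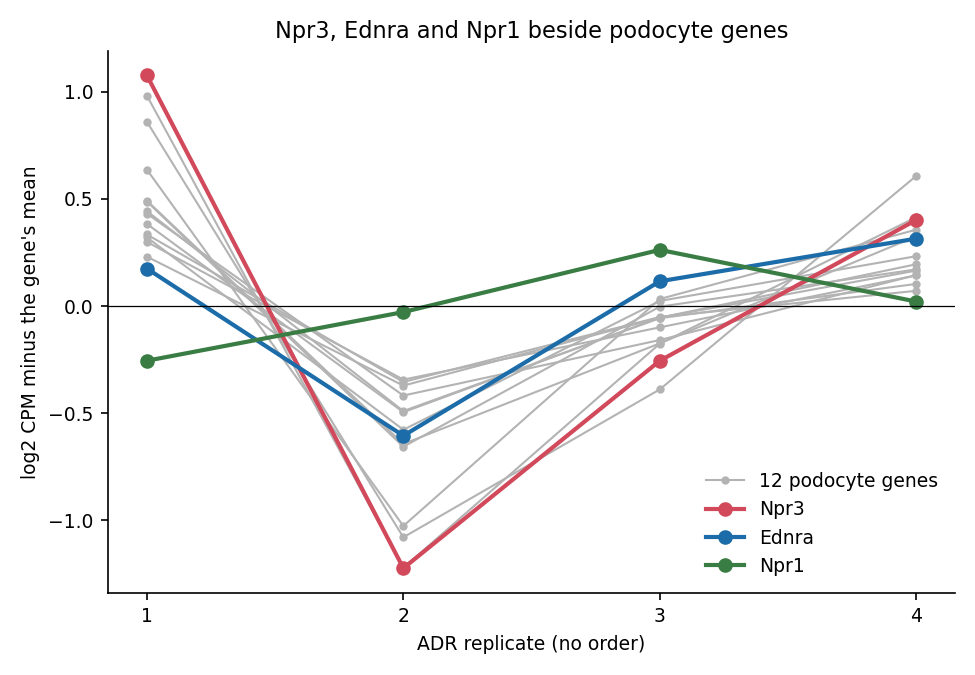
Log2 CPM minus the gene's own mean (vertical axis) in ADR replicates 1 to 4 (horizontal axis, lines join values of 1 gene and imply no order) for 12 podocyte markers in grey and Npr3, Ednra and Npr1 in colour. Npr3 lies at the outer edge of the podocyte markers in replicates 1 and 2, Ednra is lowest in replicate 2, and Npr1 is lowest in replicate 1.

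The natriuretic peptide receptors were set against each other in the same way. Npr1 minus Npr3 was -0.44, 2.08, 1.40 and 0.51 log2 CPM in replicates 1 to 4, a mean of 0.89 ± 1.10 (SD, n = 4). The difference was lowest in replicate 1 and highest in replicate 2, a range of 2.53, to which Npr3, with an SD of 0.98, contributed more than Npr1, with 0.21. The mean was 1.33 without replicate 1 and 0.49 without replicate 2. Npr1 minus Npr2 was 3.33, 2.68, 3.03 and 3.15, a mean of 3.05 ± 0.28 (SD, n = 4), and its SD was 0.16 without replicate 2. The planned two-sided exact sign-flip permutation test against 0 gave p = 0.125 for Ednrb minus Ednra and for Npr1 minus Npr2, and p = 0.25 for Npr1 minus Npr3 (0.188, 0.188 and 0.25 when adjusted over the 3 pairs). With 4 rats this test cannot go below 0.125, and 0 has no meaning where the lengths are unknown, so nothing is read from it.

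**Figure D4:**
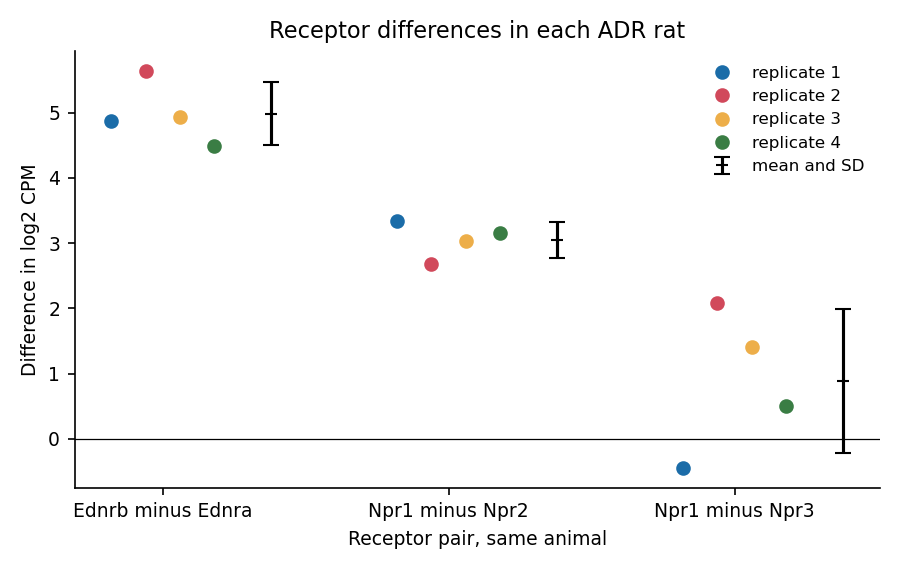
Difference in log2 CPM between 2 receptor genes of the same rat (vertical axis) for 3 receptor pairs (horizontal axis), with 1 point per ADR replicate and the mean and SD at the right of each set. Npr1 minus Npr3 spans 2.53 between rats, while Npr1 minus Npr2 spans 0.66.

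Pde5a (ENSRNOG00000014443) encodes the cGMP phosphodiesterase inhibited by sildenafil. It had 11.3, 7.22, 9.58 and 7.81 CPM (153, 117, 147 and 119 reads), a mean of 8.97 ± 1.84 CPM (SD, n = 4). Replicate 1 was highest and replicate 2 lowest, with neighbouring intervals that overlapped. At this depth the difference rests on few reads, and without replicate 1 the chi-square test no longer passed (adjusted p = 0.0927). Its closest profiles were those of Kif18a, with 30 to 40 reads, and Tmed8, at 0.0099 and 0.017.

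In replicate 1, 5 of the 9 genes were lowest (Edn1, Ece1, Nos3, Npr1 and Npr2), beside 35% of all genes, and 8 of 11 endothelial markers were lowest there too. With median-of-ratios scaling these counts were 4 of 9 and 6 of 11, beside 31.7% of all genes, and without mitochondrial genes 5 of 9 and 8 of 11, beside 39.8%. In the same library 12 of 12 podocyte markers and 9 of 10 proximal tubule markers were highest, beside 27.7% of all genes. The tubule markers had a summed level of 7581 CPM there and 3568 CPM in replicate 3. The part of these cell types in the counts was not tested. In replicate 2, 3 of the 9 were lowest (Ednra, Npr3 and Pde5a) under each of the 3 scalings, beside 31.5% of all genes with the deposited totals, 27.6% with median-of-ratios scaling and 22.9% without mitochondrial genes. In replicate 3, 4 of the 9 were highest (Edn1, Ednrb, Nos3 and Npr1), beside 29.6% of all genes. With median-of-ratios scaling 3 of the 9 were, beside 24.1% of all genes, and without mitochondrial genes 3, beside 28% of all genes.

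Other genes of the same pathways were taken from a list of 59 symbols, which includes older names, and 42 of them had values. The counting-noise test, which has no direction, passed 37 of the 42, beside 69.5% of all genes, and limma's trend test passed 0, with 5 (11.9%) at an unadjusted p under 0.05 (Mme, Ass1, Pde1b, Pde3b and Rgs2), beside 5.47% of all genes. Their median SD was 0.25. Replicate 2 was lowest for 18 of the 42 (42.9%), beside 31.5% of all genes, and replicate 1 for 16 (38.1%), beside 35% of all genes. Under either other scaling each was lowest for 16 (38.1%). For replicate 2 that stood beside 27.6% of all genes with median-of-ratios scaling and 22.9% without mitochondrial genes, and for replicate 1 beside 31.7% and 39.8%.

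The natriuretic peptide genes Nppa, Nppb and Nppc and the endothelin genes Edn2 and Edn3 were not analysed here. Among processing and degrading enzymes, Mme, which encodes neprilysin, a protease that degrades natriuretic peptides and endothelin, had the largest SD, at 0.64. It had 48.5, 19.3, 22.5 and 39.8 CPM, high in replicates 1 and 4 and low in replicates 2 and 3, in the same order as Npr3. Neprilysin is known from both podocytes and proximal tubule. The proximal tubule mean was 9.05, 8.53, 7.86 and 8.57 log2 CPM, also highest in replicate 1 but lowest in replicate 3, and the part of either cell type was not tested. Furin, a proprotein convertase that acts on the endothelin precursor, was at 224 ± 7.05 CPM and Ece2 at 7.39 ± 1.01 CPM (SD, n = 4), the latter within counting error (chi-square test, adjusted p = 0.117).

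Soluble guanylate cyclase, the receptor of nitric oxide, was represented by 3 subunit genes, each lowest in replicate 2 under all 3 scalings and each beyond counting error. Over all genes, 31.5% were lowest in replicate 2 with the deposited totals, 27.6% with median-of-ratios scaling and 22.9% without mitochondrial genes, and 69.5% were beyond counting error. Replicate 2 also had the highest mitochondrial share, 12.5%, whose part in these values was not tested. Gucy1a1 had 49.2, 44.3, 48.2 and 67.4 CPM, and Gucy1b1 27.1, 23.1, 33.9 and 42.5 CPM. These 2 were highest in replicate 4. Gucy1a2 had 13.6, 6.23, 6.58 and 8.72 CPM and was highest in replicate 1. It had 101 reads in replicates 2 and 3 alike, so its order between them rests on the library totals. The subunit genes differed in which rat was highest.

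Among the 10 genes of nitric oxide supply, 8 differed beyond counting error, beside 69.5% of all genes. Ass1, which makes argininosuccinate on the route that recycles citrulline to arginine, had the largest SD. Its values were 532, 326, 205 and 287 CPM, highest in replicate 1 and lowest in replicate 3, as was the proximal tubule mean. The gene is strongly expressed in proximal tubule, and the part of tubular RNA was not tested.

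Of the 9 other phosphodiesterase and cGMP export genes, 8 differed beyond counting error, beside 69.5% of all genes. Pde2a, a phosphodiesterase that cGMP stimulates, had 295, 387, 395 and 309 CPM, with replicates 2 and 3 above replicates 1 and 4 as for Ece1 and Nos3. Pde1b, a calmodulin-dependent enzyme, had the largest SD, 0.64, with 75.1, 25.5, 46.8 and 42.2 CPM, highest in replicate 1 and lowest in replicate 2. Pde1a was at 4.47 ± 0.89 CPM (SD, n = 4), within counting error (chi-square test, adjusted p = 0.0538).

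Among 17 effector genes, 16 differed beyond counting error, again beside 69.5% of all genes. Prkg2, the second cGMP-dependent kinase gene, did not, with 38, 40, 25 and 36 reads (chi-square test, adjusted p = 0.233). Rgs2, a brake on Gq-coupled receptors that the cGMP kinase activates, had 293, 534, 684 and 793 reads in replicates 1 to 4. In CPM it was lowest in replicate 1 and highest in replicate 4, with the largest SD of the group, 0.56. Rhoa, the small GTPase of smooth muscle contraction, was nearly level, at 611 ± 20.7 CPM (SD, n = 4).

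**Figure D5:**
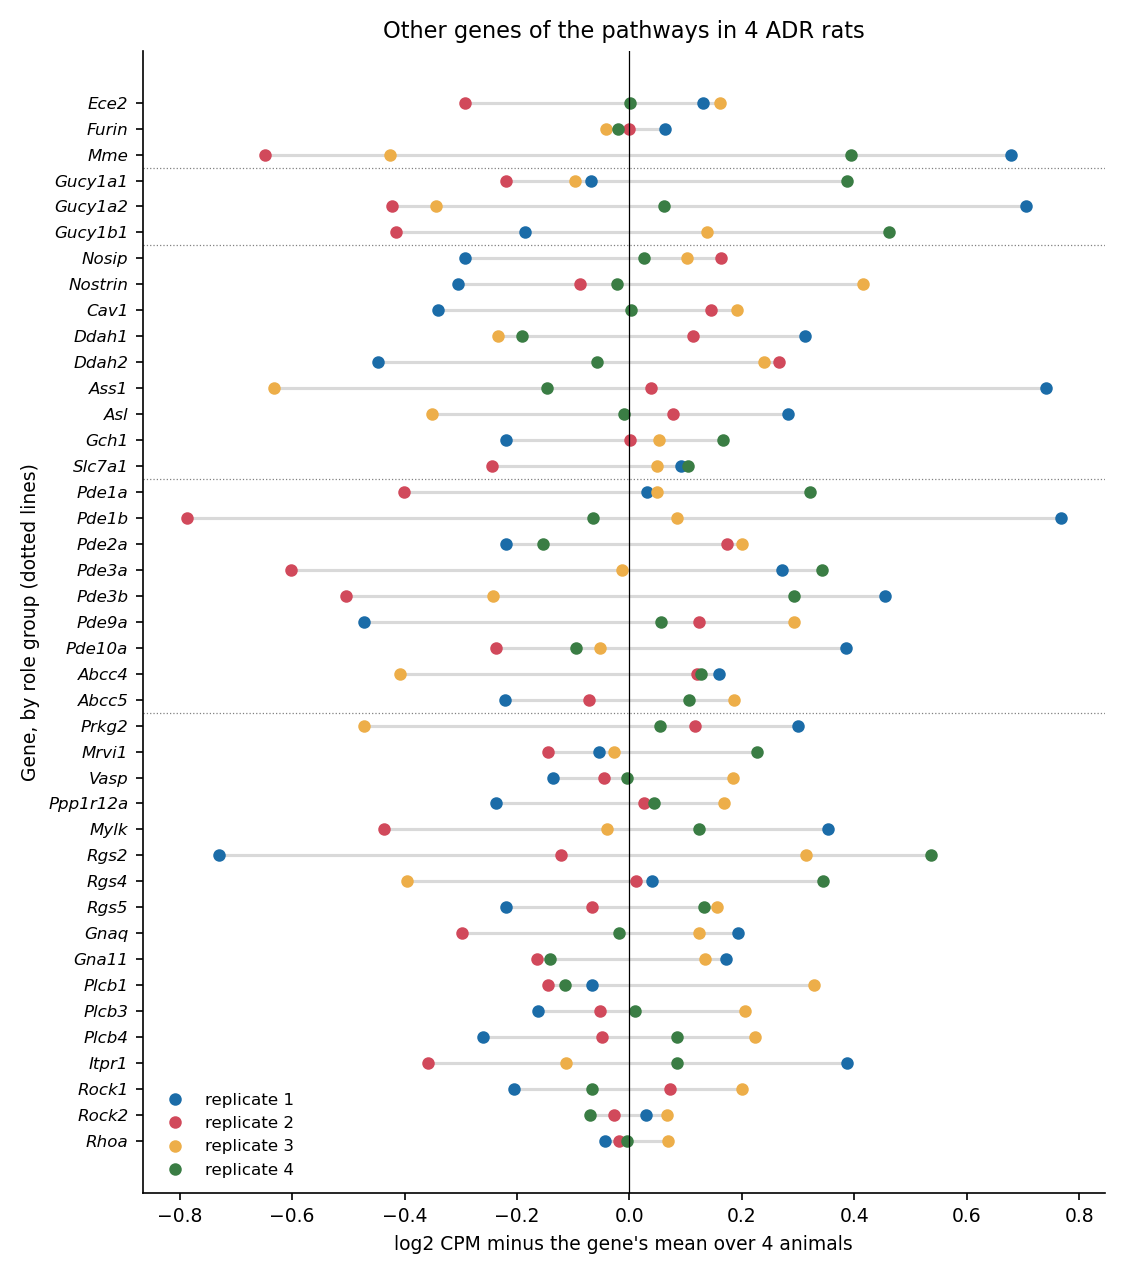
Log2 CPM minus the gene's mean over 4 ADR rats (horizontal axis) for other genes of the pathways (vertical axis, in role groups parted by dotted lines), with 1 coloured point per replicate. The 3 soluble guanylate cyclase genes are lowest in replicate 2, and Mme, Ass1, Pde1b and Rgs2 have the widest spread of their groups.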

How the data were processed

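Poly(A) RNA of glomeruli from 4 ADR rats was sequenced as stranded libraries, per the labels' protocols. HISAT2, featureCounts, Subread, limma and the build Rnor_6.0 are named in the submitters' processing notes; their versions, the annotation release, the filter on low genes and the use of strand in counting are not given in the sources used here. The authors deposited log2 values, 1 per gene and rat. In each column 2 raised to the value was a whole number of reads plus 0.5 (within 0.01 reads for 100% of genes) times a constant, so the values are log2 CPM at the listed genes' totals, and reads were recovered. Of 13265 rows, 4 with displaced values were left out, and 0 value columns belonged to no sample. Columns were matched by title, and replicate numbers are names in accession order.

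Means and SDs are over the deposited values or over CPM. Each gene found was set against 4 marker lists (podocyte, endothelial, mesangial, and smooth muscle and renin cells). Where the text gives a share of genes with a smaller SD relative to a list, it includes the smallest of that gene's 4 shares. Reads were tested against Poisson sampling at the totals (chi-square index of dispersion), and log2(CPM + 1), with a pseudocount of 1, in an intercept-only limma 3.58.1 fit (R 4.3.3) against its abundance trend, both adjusted over 13261 genes at 0.05. On data simulated for 13261 genes from these 4 libraries, the first test called 0 genes of Poisson counts. In the simulation for limma, all genes were given the same variation between rats, unlike the genes measured here. Limma there called 100% of 50 genes changed 4-fold in a single library and 50% of those changed 2-fold. These shares do not show what limma could call in the measured data. Transcript lengths were not given, so the planned division by length was not made. Intervals are exact 95% Poisson intervals and cover counting error only, since PCR reads without molecular identifiers are not independent molecules.

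Named genes are the 9 found, in each pathway group the gene with the highest mean CPM, the lowest mean CPM (used for naming, not to compare levels) and the largest SD (for soluble guanylate cyclase all 3 genes, a choice made after their values were seen), and, for each of the 9 with an SD above the median of all genes, the 2 genes nearest in centred profile; 1 gene that the rule names is not reported here. Members and gene lists were chosen with earlier results of these data known. Alternatives were other scalings, pseudocounts, a robust prior, a filter of 50 mean reads and leaving out each rat. Python 3.11.15, numpy 2.4.6, scipy 1.17.1 and pandas 2.3.3 were used.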

Additional observations from a re-analysis of the deposited data

Results flagged for a closer look

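Of 12 sets of 4 values examined (9 genes and 3 receptor differences), 1 had a single rat set apart, with Dixon's ratio of gap to range above its 95% critical value, where chance gives 0.6. It was Ednrb, with a ratio of 0.952, set apart by a low replicate 4. Its values were 551, 549.8, 555 and 465 CPM in replicates 1 to 4. Over all genes 673, or 5.08%, met the same criterion.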

How the results depend on the processing

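Of 168 values recomputed under alternatives, 162 stayed within their criterion (1 SD for levels and differences, 1.5 times for SDs and counts) and 6 moved. The median SD of the 9 genes, 0.35, ran from 0.23 to 0.36 when each rat was left out, the lowest without replicate 1. The SD of single genes and the count of SDs above 0.4 were recomputed by choices made after seeing the data. That count, 4, was 2 without replicate 1, and the SD moved for Edn1 (0.29) and Npr2 (0.23) without replicate 1, for Ednra (0.10) without replicate 2 and for Ednrb (0.0063) without replicate 4, each with fewer rats in the SD. The 63 recomputed mean levels and the receptor differences stayed within theirs, which leaving out 1 of 4 rats cannot exceed. Many of the 162 values thus could not have moved, so their number does not measure stability. The count of other pathway genes beyond counting error ranged from 34 to 37. The alternative without division by length was not run, because the values themselves carry none. Limma's counts of 0 held under each of its 9 alternatives, with a smallest adjusted p over all genes of 0.622 without replicate 1. Each of these fits again took its spread from the same genes, so the counts of 0 are no sign of stability. No paired analysis was possible because the samples used here form a single group. Replicate totals shifted by at most 0.053 (log2) under the other scalings.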
